A study of Rattus norvegicus with 12 samples.

Results

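The nuclear-encoded subunits of the mitochondrial respiratory chain were read from 82 probes of 72 genes, out of 41012 non-control probes on a whole rat genome array. The probes were taken by name: genes starting with Nduf for complex I, Sdha to Sdhd for complex II, genes starting with Uqcr and Cyc1 for complex III, genes starting with Cox4 to Cox8 for complex IV, and genes starting with Atp5 for complex V, the ATP synthase. Complex I had 36 probes of 32 genes, complex II 4 of 4, complex III 8 of 6, complex IV 19 of 16 and complex V 15 of 14. RNA came from micropunches of the rostral ventrolateral medulla (RVLM), the brainstem region whose neurons set sympathetic drive to heart and vessels, in male rats of the inbred strain F344. There were 3 young animals of 3 months, 3 middle-aged animals of 12 months and 3 aged animals of 24 months, with no treatment beyond the isoflurane given before decapitation. Replicate 3 of each age was measured on a pair of arrays, so that 9 animals gave 12 arrays on 3 slides, of which slide 3 alone held all ages. Slide 1 held no aged and slide 2 no young animal, and aged replicate 3 had both of its arrays on slide 3. Without a slide term, differences between aged and young animals cannot be fully told apart from differences between slides. The study was directed at changes of immune genes with age. The respiratory chain is not particular to a single cell type of the punch, so that a bulk level cannot tell fewer cells of a type from less RNA per cell.

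The respiratory chain sits in the inner mitochondrial membrane. Complex I oxidises NADH and complex II oxidises succinate, both pass electrons to ubiquinone, complex III hands them on to cytochrome c, and complex IV reduces oxygen. Complexes I, III and IV pump protons, and complex V uses the proton gradient to make ATP. Neurons depend heavily on this route for the ATP that drives their ion pumps, and loss of chain activity with age is a long-standing subject of study in brain and muscle. The chain also has subunits encoded by mitochondrial DNA, which are not analysed here: of 26 such genes sought, 0 had a probe by name.

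The probes are 60 bases long. Those of the 4 members with the smallest unadjusted p values between aged and young animals are shown as they stand in the array files, since their sequences say exactly which transcript stretch was read. Positions are those of the array design, on rat build rn3; the Ndufc2 span is longer than its probe.
Cyc1 (chr7:114429445-114429504, plus strand): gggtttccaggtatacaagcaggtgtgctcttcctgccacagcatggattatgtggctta
Atp5b (chr7:1378451-1378510, plus strand): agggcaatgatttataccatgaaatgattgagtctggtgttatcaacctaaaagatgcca
Cox6a2 (chr1:187614813-187614872, minus strand): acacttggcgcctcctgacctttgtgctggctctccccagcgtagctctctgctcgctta
Ndufc2, the dimmer of its probes (chr1:154719694-154720357, plus strand): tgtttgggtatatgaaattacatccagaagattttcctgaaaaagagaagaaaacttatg
Each of these had at least 1 reading frame without a stop codon over its whole length.

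A probe was fitted when all arrays of at least 1 age read it as well above background. This held for 80 of the 82 probes, and each of the 80 met that limit on all 12 arrays. The others were a Cox8h probe and a probe named Cox6b_predicted, which the array files describe as Uroplakin Ia. No spot of a fitted member was marked as an outlier. Levels are log2 of the processed signal minus the 75th percentile of the array, so that 0 is the level of a probe at that percentile. Mean levels ran from −4.96 for 1 of the Cox8h probes to 8.49 for Cox6a1, the common form of a complex IV subunit; levels of different probes are not compared, because probes differ in how well they bind. Over the whole array 73.5% to 77.1% of spots met the background limit. Among the markers of C1 neurons, the catecholamine cells of the RVLM, the synthetic enzymes Th, Dbh and Ddc were well above background in every age group, the transporter Slc6a2 was not, and Pnmt had no probe.

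No respiratory chain subunit passed the test in any comparison. Limma's p, adjusted over all 29797 fitted probes by the method of Benjamini and Hochberg, was under 0.05 for 0 of the 80 member probes between aged and young animals, where 1.85% of all probes passed (1.39% higher and 0.463% lower in the aged). It was likewise 0 of 80 between middle-aged and young animals (0.175% of all probes), 0 of 80 between aged and middle-aged animals (0.00336% of all probes), and 0 of 80 in the F test for any age (1.02% of all probes). With shares this low over all probes, 0 of 80 lies near the background in each comparison. At an unadjusted p under 0.05 there were 4 of 80 members between aged and young animals, which is 5% where all probes gave 15.1%. The same count was 0 of 80 between middle-aged and young (6.28% of all probes), 0 of 80 between aged and middle-aged (10.5% of all probes) and 1 of 80 in the F test (12.1% of all probes). The 3 aged and 3 young animals did not overlap for 10 member probes, 5 higher and 5 lower in the aged, or 12.5% where all probes gave 22.9%.

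In the fit without a slide term, the size of change that these animals leave room for was small for most members. For 75 of the 80 probes the 95% interval of the aged minus young difference lay within 0.5 log2 units of 0 (93.8%, against 66.8% of all probes), and for 77 of the 80 it stayed inside a 1.5-fold change in either direction. The median standard error (SE) was 0.09 log2 units for the members and 0.11 for all probes. The differences ran from −0.24 for Cyc1 to 0.27 for Cox6a2. Of the 80 differences 53 were positive (66.2%, against 55.1% of all probes), and their median was 0.04, against 0.02 for all probes. By complex the medians were 0.05 for complex I, 0.03 for complex II, −0.04 for complex III, 0.10 for complex IV and 0.03 for complex V. Sign and size here rest on the scaling: with arrays scaled to the median the members' median was −0.0047 (39 of 80 positive), and with quantile normalization it was −0.02 (34 of 80 positive). With the series matrix values it was 0.08 (61 of 80 positive), and on slide 3 alone, with 1 animal per age, 0.09 (64 of 80 positive). The median over all probes moved as well. It was −0.0201 with median scaling, −0.0066 with quantile normalization, −0.0188 with the series matrix values and 0.0381 on slide 3 alone. With slide as a block the members' median stayed at 0.04, but single estimates moved. Some lay further from 0, as for Cox6a2 (0.43 ± 0.09) and Cyc1 (−0.31 ± 0.11), and others nearer, as for Atp5b (−0.09 ± 0.11). The intervals were not counted under that fit, so the counts above hold only without a slide term.

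**Figure D1:**
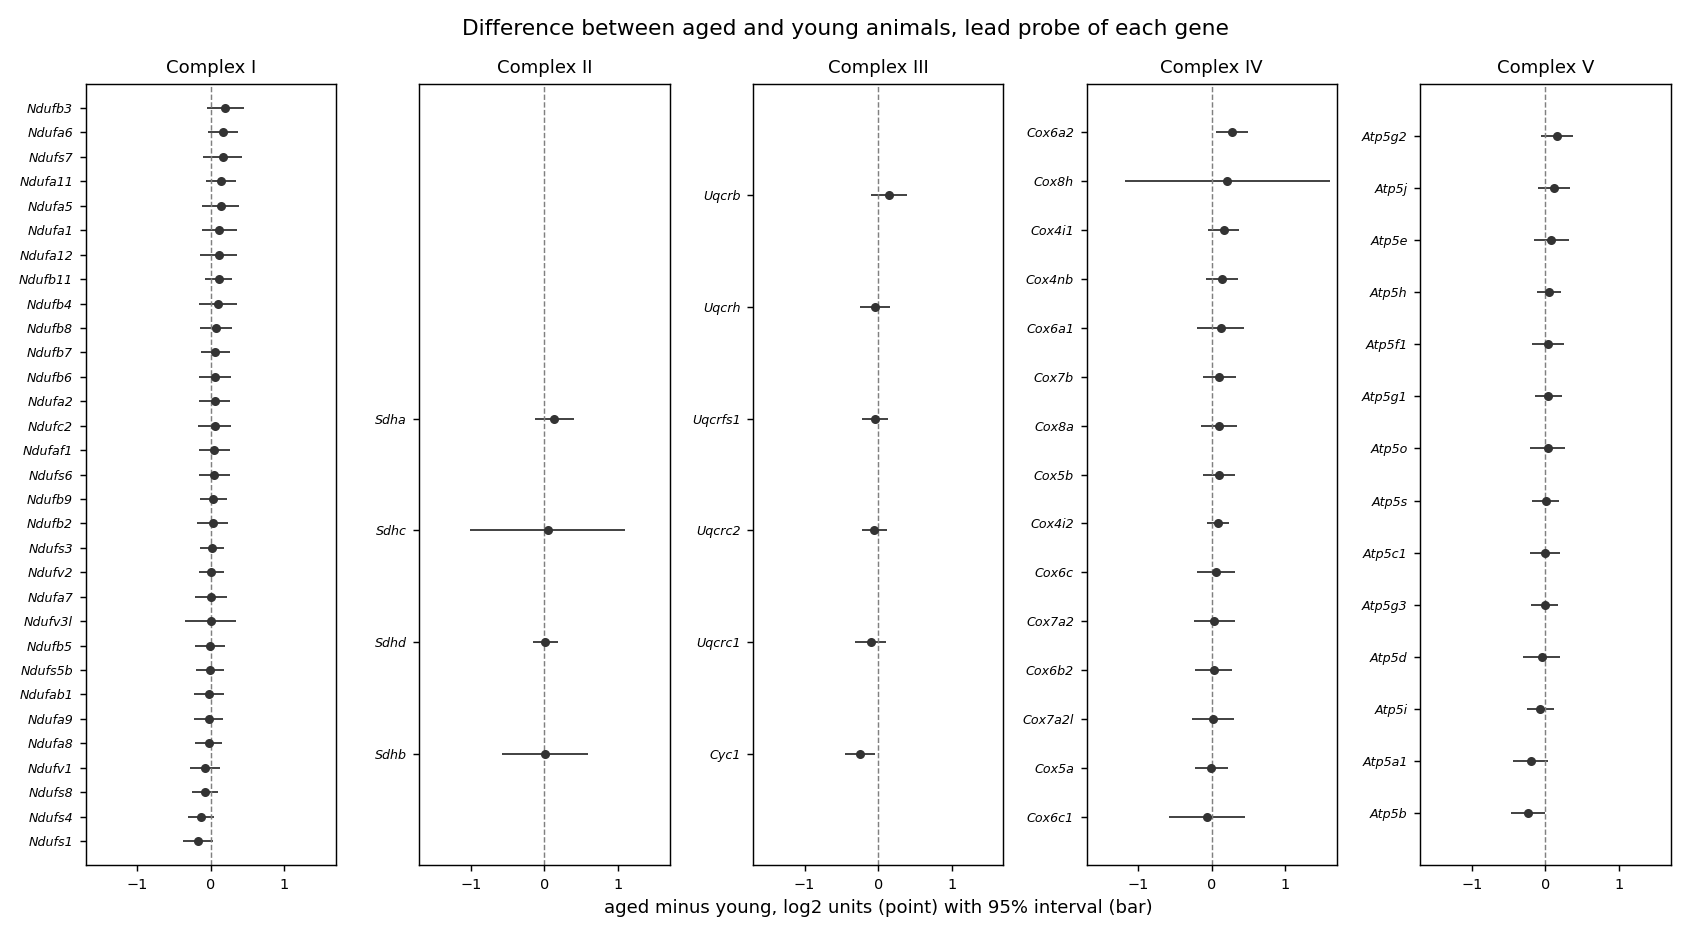
Aged minus young difference in log2 units (horizontal axis) for the lead probe, the one with the highest mean level, of each gene shown, in panels by complex and sorted by size; points are limma estimates and bars 95% intervals, with 3 animals per age. The points lie between −0.24 and 0.27, and the widest bar belongs to Cox8h, from −1.18 to 1.60.

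Levels of the members shifted together in single animals. The median deviation of the 80 probes from the mean of the 9 animals was −0.12, 0.03 and 0.03 log2 units in young replicates 1, 2 and 3. It was −0.06, 0.03 and 0.03 in the middle-aged animals, and −0.02, −0.03 and 0.13 in the aged. Young replicate 1 was thus the lowest and aged replicate 3 the highest, and the other 7 animals lay between −0.06 and 0.03 whatever their age. Young replicate 1 had the lowest level of the 9 animals for 43 of 80 members, and aged replicate 3 had the highest for 40 of 80. These counts were not made over all probes. Over all fitted probes the medians spanned −0.03 in young replicate 1 to 0.04 in aged replicate 3. These animals were also lowest and highest for assembly factors (−0.11 and 0.07), ATP export carriers and porins (−0.14 and 0.13), and import and chaperones (−0.09 and 0.07). For the citric acid cycle other animals stood at both ends, for nuclear regulators at the high end, and for mobile carriers at the low end. The aged minus young median of the members was −0.02 without young replicate 1 (32 of 80 positive) and −0.01 without aged replicate 3 (33 of 80 positive), so its sign rests on both of these animals. Between the pair of arrays of replicate 3 the member levels differed by a median of 0.04 log2 units in each age, and between animals of an age by 0.14 in the young, 0.10 in the middle-aged and 0.11 in the aged.

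**Figure D2:**
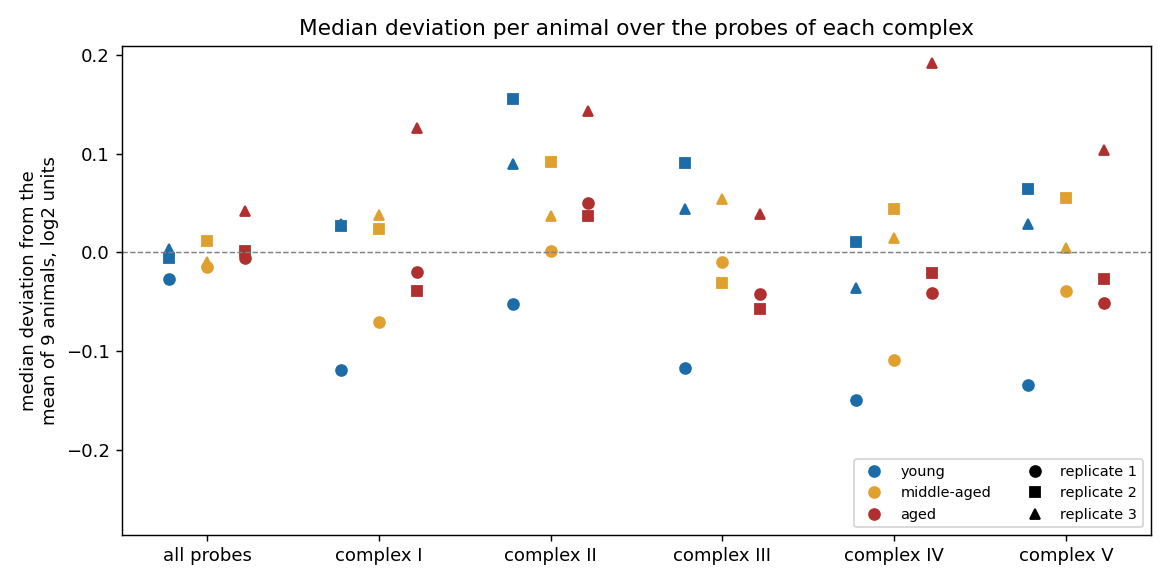
Median deviation from the mean of 9 animals in log2 units (vertical axis) for all fitted probes and for the probes of each complex, with 1 symbol per animal (colour for age, shape for replicate). Young replicate 1 lies lowest in every complex, between −0.15 and −0.05, and aged replicate 3 is the highest in complexes I, IV and V, at 0.13, 0.19 and 0.10.

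Complex I was read from 36 probes, of which 24 were positive and 12 negative between aged and young animals. Its peripheral arm carries the flavin and iron-sulfur clusters that take electrons from NADH. Ndufs1, the largest iron-sulfur subunit of that arm, stood at 2.61, 2.78 and 2.66 in the young, 2.75, 2.59 and 2.48 in the middle-aged and 2.54, 2.57 and 2.42 in the aged. All 3 aged values lay below the young values, by a mean of −0.17 ± 0.09 (SE, n = 3 per group), and limma's adjusted p was 0.412; with slide as a block the difference was −0.35 ± 0.16 (adjusted p = 0.412).

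Other core subunits of complex I lay on either side of 0. Ndufs3, Ndufv2 and Ndufs7 differed by 0.01 ± 0.07, 0.00 ± 0.07 and 0.16 ± 0.12 between aged and young animals. Ndufs8, an iron-sulfur subunit, and Ndufv1, which holds the flavin, differed by −0.09 ± 0.08 and −0.08 ± 0.09. Ndufs4, an accessory subunit whose loss causes Leigh-like disease in mice, stood at 0.30, 0.37 and 0.24 in the young, 0.40, 0.17 and 0.25 in the middle-aged and 0.16, 0.13 and 0.21 in the aged. The aged values lay just below the young ones, by −0.13 ± 0.08 (limma adjusted p = 0.461). The accessory subunits Ndufb3 and Ndufa6 were higher in the aged, at 0.20 ± 0.11 and 0.17 ± 0.09 (adjusted p = 0.441 and 0.411), and their groups overlapped. Ndufc2, a small membrane-arm subunit, had a pair of probes that gave different answers. The bright one gave 0.05 ± 0.10, and the dim one shown above gave 0.24 ± 0.10, with a limma p of 0.0342 and an adjusted p of 0.29, or 0.40 ± 0.14 (adjusted p = 0.283) with slide as a block. The dim probe had levels of −0.60, −0.50 and −0.25 in the young and −0.19, −0.27 and −0.15 in the aged. The groups overlapped on that probe, since young replicate 3 lay above aged replicate 2. Ndufaf1, which the name rule takes in although it is an assembly factor and not a subunit, differed by 0.05 ± 0.09.

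Complex II, succinate dehydrogenase, is both a chain complex and an enzyme of the citric acid cycle, and all 4 of its subunits were measured. Between aged and young animals they differed by 0.13 ± 0.12 for Sdha, the flavoprotein, 0.00 ± 0.26 for Sdhb, the iron-sulfur protein, 0.05 ± 0.46 for Sdhc and 0.01 ± 0.08 for Sdhd, the membrane anchors. The middle-aged values of Sdhb and Sdhc had a wide spread, and in each gene 1 middle-aged animal lay below the rest. Sdhc stood at 3.74, 3.90 and 3.87 in the young, 3.84, 3.78 and 1.80 in the middle-aged and 3.71, 3.91 and 4.03 in the aged. The low value of middle-aged replicate 3 was the mean of −0.44 on its first array and 4.05 on its second, processed signals of 606.9 and 12920 from the same RNA. A gap this wide below the other 8 animals occurred for 0.0671% of all fitted probes. Set missing, that spot left the animal at 4.05, and the middle-aged minus young difference of Sdhc went from −0.70 ± 0.46 to 0.05 ± 0.11 (adjusted p = 1.00).

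Sdhb had its low value in another middle-aged animal. It stood at 4.52, 4.84 and 4.65 in the young, 4.60, 3.60 and 4.73 in the middle-aged and 4.67, 4.62 and 4.73 in the aged. Middle-aged replicate 2 lay 0.92 below the next animal, a gap reached by 0.762% of all probes, and this animal had 1 array, so that a low spot and a low level in the animal cannot be told apart. Its processed signal for Sdhb was 7459, where the other 11 arrays gave 15291 to 21515. For Sdha, on the other hand, the same animal had the highest level of the 9. Complex II had a median of −0.19 for middle-aged minus young and 0.20 for aged minus middle-aged animals; with the Sdhc spot missing these were 0.01 and 0.02, without middle-aged replicate 2 they were −0.03 and 0.04, and without middle-aged replicate 3 they were −0.03 and 0.06. With slide as a block the first was 0.05.

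**Figure D3:**
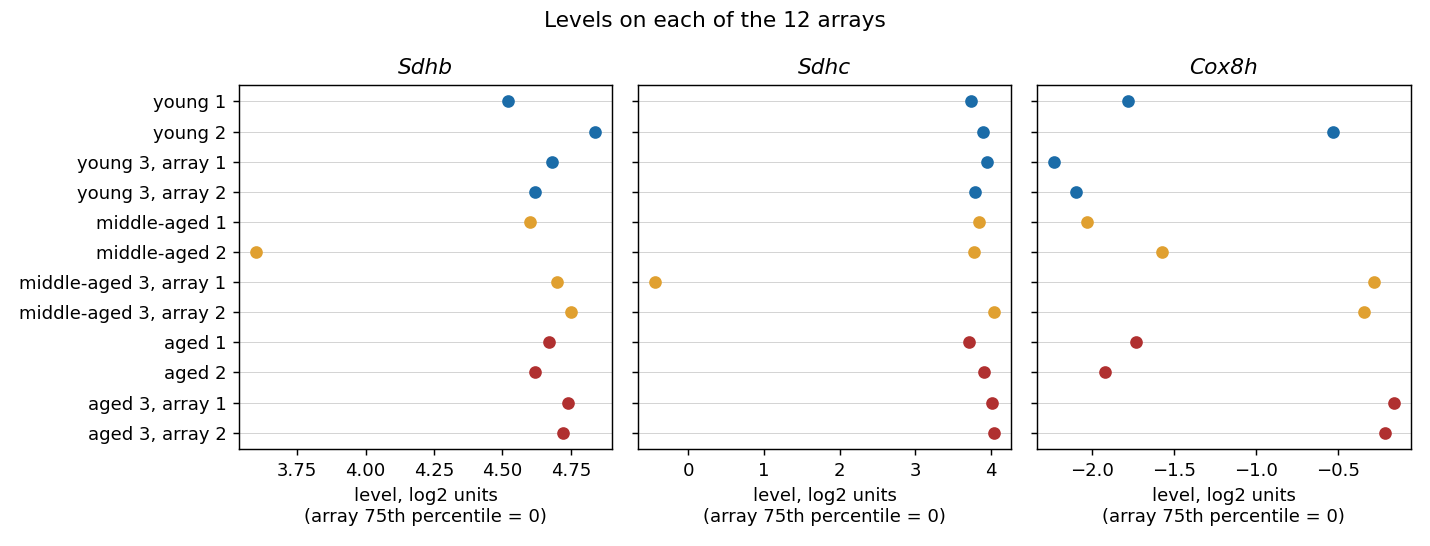
Levels of Sdhb, Sdhc and Cox8h in log2 units above the 75th percentile of the array (horizontal axes, each with its own range) on each of the 12 arrays, coloured by age. Sdhc is low on 1 array of middle-aged replicate 3 (−0.44) and not on its other array (4.05), whereas Cox8h is high in 1 animal of each age and on both arrays wherever such an animal had a pair.

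Complex III, which passes electrons from ubiquinol to cytochrome c, was the 1 complex whose median was below 0 between aged and young animals, with 6 of 8 probes negative. Cyc1, cytochrome c1, carries the haem that hands electrons to cytochrome c. It stood at 3.83, 4.04 and 3.94 in the young, 3.97, 3.77 and 3.94 in the middle-aged and 3.73, 3.76 and 3.59 in the aged. All 3 aged values lay below all 6 others, and the aged minus young difference was −0.24 ± 0.09, or a ratio of 0.845, with a limma p of 0.024 and an adjusted p of 0.253. Over 22 alternatives it ranged from −0.39 to −0.19, and its lowest adjusted p was 0.214. The Rieske iron-sulfur protein Uqcrfs1 and the core proteins Uqcrc1 and Uqcrc2 differed by −0.04 ± 0.08, −0.10 ± 0.09 and −0.05 ± 0.07. Uqcrb, a small subunit near the ubiquinone site, had 3 probes at 0.15 ± 0.11, 0.06 ± 0.08 and −0.05 ± 0.13, and Uqcrh, the hinge protein, was at −0.04 ± 0.09.

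Complex IV had the highest median, with 14 of 17 probes positive between aged and young animals, 0 of them past the test. Without aged replicate 3 its median went from 0.10 to 0.02, and leaving out 1 animal also turned the sign of complex I (−0.02 without aged replicate 3 or young replicate 1), of complex II (−0.02 and −0.01 without these) and of complex V (−0.01 and −0.05). Several subunits of complex IV exist as a common form and a form typical of heart and skeletal muscle or of other settings. Cox6a2, the heart and muscle form of subunit 6a, stood at −0.73, −0.65 and −0.82 in the young, −0.63, −0.68 and −0.58 in the middle-aged and −0.56, −0.54 and −0.28 in the aged. The aged values lay above all young values, with aged replicate 3 clearly the highest, and the difference was 0.27 ± 0.09, or 1.21-fold, with a limma p of 0.0177 and an adjusted p of 0.223. With slide as a block it was 0.43 ± 0.09 (adjusted p = 0.0742), and on slide 3 alone, with 1 animal per age, it was 0.59. Its common counterpart Cox6a1 differed by 0.12 ± 0.14. Of 7 fitted genes on a list of muscle markers, 0 passed, their median difference was −0.03, and their median deviation per animal was −0.13 to 0.02 in the young and 0.01 to 0.14 in the aged; their part in the Cox6a2 values was not tested.

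Cox8h, now named Cox8b, is the heart and muscle form of subunit 8. On its brightest probe it stood at −1.78, −0.53 and −2.16 in the young, −2.03, −1.57 and −0.31 in the middle-aged and −1.73, −1.92 and −0.19 in the aged. One animal of each age was therefore high, at −0.53 to −0.19, and the other 6 lay between −2.16 and −1.57. The level was the same on both arrays of an animal: −0.28 and −0.34 in middle-aged replicate 3, −0.16 and −0.21 in aged replicate 3, and −2.23 and −2.10 in young replicate 3. The age groups had means of −1.49 ± 0.85, −1.30 ± 0.89 and −1.28 ± 0.95 (SD, n = 3), and their differences were within this spread. Cox8a, the common form, did not share the pattern and spanned 6.75 to 7.12 over all 9 animals. The fold between the high and the low animals is a description only, as they were singled out after their values were seen.

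The array holds 3 probes under the name Cox8h, and their sequences show that they do not read the same strand. The brightest lies on the minus strand at chr1:201207352-201207411 and the others, made from an expressed sequence tag, on the plus strand at chr1:201207391-201207450 and chr1:201207411-201208612. Capitals mark the 21 bases that the first of these plus-strand probes shares, as the reverse complement, with the minus-strand probe.
Cox8h, minus strand: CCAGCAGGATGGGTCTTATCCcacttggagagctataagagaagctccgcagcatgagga
Cox8h, plus strand, overlapping: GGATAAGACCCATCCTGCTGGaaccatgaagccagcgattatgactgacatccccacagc
Cox8h, plus strand, extended: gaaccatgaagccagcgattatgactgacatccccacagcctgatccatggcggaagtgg
The plus-strand probes share 40 bases with each other. The overlapping one was well above background on 3 of 12 arrays and was not fitted, and the extended one stood between −5.17 and −4.29 in all 9 animals, without the high values that 3 animals had on the minus-strand probe. The extended probe was dim and its arrays could disagree. Young replicate 3, the highest animal on it, read −3.43 on its first array and −5.16 on its second.

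Among the other subunits of complex IV, Cox4i1, the common form of subunit 4, differed by 0.16 ± 0.09 (adjusted p = 0.442), and Cox4i2, its lung and hypoxia-linked form, by 0.08 ± 0.07. Cox5a and Cox5b, which surround the catalytic core, differed by −0.01 ± 0.10 and 0.10 ± 0.10, the second with another probe at 0.12 ± 0.11. Cox6c, Cox7a2, Cox7b and Cox8a differed by 0.06 ± 0.11, 0.04 ± 0.12, 0.10 ± 0.10 and 0.10 ± 0.11. Cox7a2l, a related protein that helps join complexes III and IV, stood at 4.98 in middle-aged replicate 2 and at 4.43 to 4.52 in the other 8 animals, and its aged minus young difference was 0.02 ± 0.13. Cox6b2, the testis form of subunit 6b, was dim and differed by 0.03 ± 0.11. Levels of Cox7a1, Cox7c and Cox6b1 were not analysed here, and the name Cox8c was not among the members. The promoter of Cox6b1 does enter the motif search below, under the member name Cox6b. A pair of entries that the name rule takes in are no subunits: Cox4nb, now Emc8, a part of the membrane protein insertion machinery of the endoplasmic reticulum, at 0.14 ± 0.09, and Cox6c1, now annotated as a pseudogene of Cox6c, at −0.07 ± 0.23. Over 48 aligned bases the probes of Cox6c and Cox6c1 were identical at 41, so that the dim Cox6c1 signal may hold Cox6c RNA, and its values are uncertain.

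Complex V splits into the catalytic F1 head and the membrane part Fo. Atp5b, the catalytic beta subunit of the head, stood at 4.98, 5.33 and 5.07 in the young, 5.16, 4.95 and 4.98 in the middle-aged and 4.88, 4.93 and 4.86 in the aged. The aged values lay below the young ones by −0.24 ± 0.10, a ratio of 0.848, with a limma p of 0.0468 and an adjusted p of 0.323, and young replicate 2 was the highest of all. With slide as a block the difference was −0.09 ± 0.11 (adjusted p = 0.815), and on slide 3 alone it was −0.14. Atp5a1, the alpha subunit that alternates with beta in the head, stood at 5.14, 5.29 and 5.25 in the young, 5.42, 5.13 and 5.16 in the middle-aged and 5.09, 5.12 and 4.88 in the aged. The aged values lay below the young ones by −0.20 ± 0.10 (adjusted p = 0.406), with aged replicate 3, highest for 40 of 80 members, the lowest here. Atp5c1, the gamma shaft of the head, differed by −0.01 ± 0.09; differences between subunits were not tested.

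**Figure D4:**
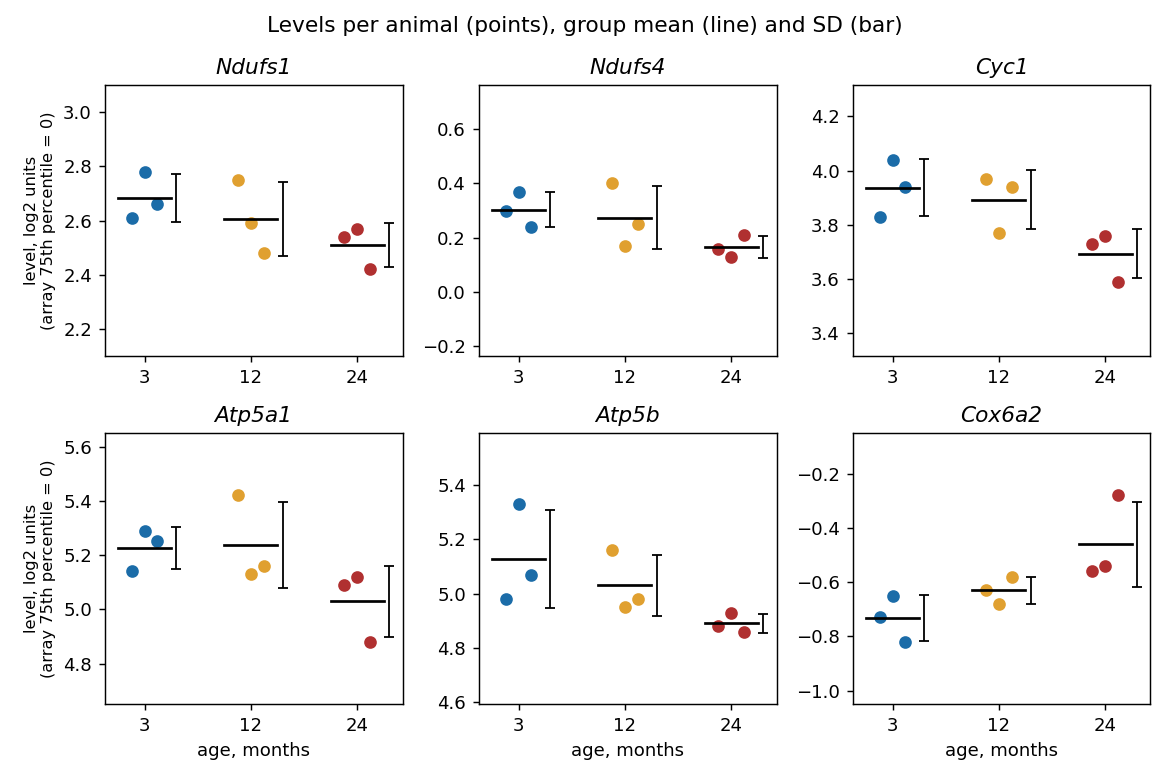
Levels in log2 units above the 75th percentile of the array (vertical axes, each spanning 1 unit) of 6 members against age in months; points are animals, lines group means and bars SD. The aged animals lie below the young in Ndufs1, Ndufs4, Cyc1, Atp5a1 and Atp5b and above them in Cox6a2, and 0 of these differences passed the test. The choice of genes is not balanced by direction. Over all 80 member probes, 5 lay higher and 5 lower in the aged without overlap (12.5%, against 22.9% of all probes). All 5 of the lower and 1 of the higher are shown.

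In the membrane part, the ring of subunit c is made from 3 genes that give the same mature protein. They differed by 0.04 ± 0.08 for Atp5g1, 0.16 ± 0.10 for Atp5g2 and −0.01 ± 0.08 for Atp5g3, and the other probe of Atp5g2 gave 0.16 ± 0.12. Atp5j, coupling factor 6 of the stalk, differed by 0.12 ± 0.10, Atp5e, the epsilon subunit of the head, by 0.08 ± 0.10 and Atp5i, a subunit that helps the synthase pair up in the membrane, by −0.07 ± 0.08. Atp5s, now Dmac2l, is named for a coupling factor and differed by 0.00 ± 0.08.

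The members listed as catalytic core subunits, the gamma shaft Atp5c1 among them, can be set beside the rest. Over the lead probes of 14 such genes in complexes I, II, III and V, the median aged minus young difference was −0.02, with 6 positive and 8 negative. Over the 57 other genes, which include the non-subunits Ndufaf1, Cox4nb and Cox6c1, it was 0.05, with 42 positive and 15 negative. Neither group held a gene that passed, and the difference between the groups of genes was not tested. Between middle-aged and young animals the largest differences outside Sdhb and Sdhc were −0.30 for Cox6c1 and 0.19 for Cox8h, and the lowest adjusted p of any member was 0.905. Between aged and middle-aged animals Cyc1 was at −0.20 and Atp5a1 at −0.21, and the lowest adjusted p was 0.484, that of Cyc1. The aged and the middle-aged animals are each compared with the same young animals, so these sets of differences are not independent.

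Lists of other mitochondrial genes held 0 passing genes between aged and young animals, where 1.85% of all probes passed, and a share of 0 in lists this short lies near that background. The count was 0 of 34 for assembly factors of the chain (median difference 0.02), 0 of 17 for the citric acid cycle (−0.04), 0 of 14 for mobile carriers and electron entry (−0.02), and 0 of 22 for nuclear regulators and mitochondrial DNA maintenance (0.02). It was 0 of 12 for ATP export carriers and porins (0.08) and 0 of 25 for import and chaperones (0.05). A further 18 probes carry older names but belong to chain or assembly genes or their pseudogenes by their present name, such as Atpif1, the inhibitor of complex V. Of these 15 were fitted, 0 passed in any comparison, and their median difference was 0.02.

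Markers of the cell types a punch can hold were read on the same arrays. Beside 1.39% of all probes that rose and 0.463% that fell, 9 of 12 microglial markers rose and 0 fell in the aged animals, and their median deviation lay from −0.56 to −0.40 among young, from 0.02 to 0.20 among middle-aged and from 0.34 to 0.50 among aged animals. Of 10 oligodendrocyte markers 3 fell and 0 rose, with medians from 0.24 to 0.32 among young, from −0.19 to −0.07 among middle-aged and from −0.24 to −0.07 among aged animals. Of 5 fitted red blood cell markers 0 passed, with a median difference of 0.87 and medians per animal of −0.46 to 0.16 in the young and 0.16 to 1.03 in the aged. Of 12 neuronal markers 0 passed, with a median difference of −0.06 and medians of −0.09 to 0.10 in the young and −0.16 to 0.14 in the aged. The 9 astrocyte and 10 endothelial markers gave 0 passing genes each, with medians of −0.01 and −0.24, as did the 6 of C1 neurons, with a median of −0.31. The part of these shifts in the levels of the chain subunits was not tested.

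Promoters of the member genes were searched for sequence motifs, which the name rule did not use; each motif was absent from most of them, and shares were not tested. RefSeq promoters of build GRCr8, 300 bases each with most of it before the start, were found for 59 of 68 member genes sought. A motif of NRF1, a regulator named for its role in nuclear genes of respiration, searched on both strands as GCGCA and GCGC parted by any 1 base, lay in 14 of the 59 (23.7%) and in 4.3% of all 33469 promoters. The core motif of ETS factors, among them NRF2, searched as CCGGAAG, lay in 17 (28.8%, against 8.7%). The YY1 motif AANATGGCG lay in 13 of the 59, against 3.0% of all promoters. CCAAT was found in 21 (35.6%, against 37.5%) and the SP1 motif GGGCGG in 25 (42.4%, against 33.1%). Member promoters had a median GC content of 56.3% and all promoters 51.7%, and the motif shares are not adjusted for it. As examples, the Sdha promoter, with 3 NRF1 matches in capitals, and the Cox4i1 promoter, with 2 ETS matches in capitals, both on the plus strand, read as follows.
Sdha (GRCr8 chr1:30764303-30764602): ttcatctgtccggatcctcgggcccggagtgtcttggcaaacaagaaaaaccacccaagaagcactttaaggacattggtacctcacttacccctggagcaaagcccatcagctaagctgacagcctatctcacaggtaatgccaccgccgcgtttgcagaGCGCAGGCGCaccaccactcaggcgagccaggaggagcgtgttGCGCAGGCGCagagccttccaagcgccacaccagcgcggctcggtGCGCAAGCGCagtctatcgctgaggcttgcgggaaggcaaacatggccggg
Cox4i1 (GRCr8 chr19:65630133-65630432): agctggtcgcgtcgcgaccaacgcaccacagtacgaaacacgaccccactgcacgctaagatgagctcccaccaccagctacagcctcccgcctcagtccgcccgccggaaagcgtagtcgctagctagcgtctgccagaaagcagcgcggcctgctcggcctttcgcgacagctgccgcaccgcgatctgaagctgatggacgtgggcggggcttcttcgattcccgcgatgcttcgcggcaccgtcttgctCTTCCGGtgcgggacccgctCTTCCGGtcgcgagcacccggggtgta
The ETS core appears in Cox4i1 on the opposite strand, as CTTCCGG. These matches describe letters in a window and are no evidence of binding.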

How the data were processed

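Deposited intensity values, on a linear scale, came from Agilent Feature Extraction 9.5.1.1 per the file headers, background-subtracted and not scaled between arrays. The deposited series matrix holds a score, standardised within each array, used as an alternative only. To give log2 units, the score was multiplied by the mean over the arrays of the slope of log2 signal on it. The slope was 3.195 to 3.219 on aged and 3.245 to 3.277 on young arrays. A common slope leaves this difference in the values, and its part in them was not tested. Here the processed signal was taken as log2, outlier spots were set missing, spots of a probe were averaged, the 75th percentile of each array was subtracted, and the arrays of an animal were averaged. Probes well above background on all arrays of at least 1 age were kept (29797 of 41012). Groups were compared at the level of probes with limma 3.58.1 in R 4.3.3 over 9 animals, two-sided, with Benjamini-Hochberg adjustment over all kept probes; prior degrees of freedom were 2.69. The number of animals limits the precision, and nothing says whether animals shared a litter. Members and lists were chosen with earlier results of these data known. Named members were the extremes of each complex, isoform sets, catalytic core subunits and name-matched non-subunits, plus others singled out after their values were seen (the probe of Ndufc2, Sdhc, Sdhd). The fit was also run on simulated data with independent noise in each probe. Such data lack the shifts that members share in single animals, so no support is drawn from them. Alternatives are listed in the closing section. The values of 1 member gene are not reported here; it stays in the counts and medians.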

Additional observations from a re-analysis of the deposited data

How the results depend on the processing

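The count of members past the threshold stayed at 0 in each comparison under each alternative that gives a test: normexp background correction, quantile normalization, median scaling, series matrix values, no filter or a stricter filter on dim probes, slide as a block, a fit of all 12 arrays with each animal as random, the replicate block (0 of 80, with 3 members at an unadjusted p under 0.05 between aged and young), 1 probe per gene, only the groups compared, and leaving out each animal. Of all probes, 0.776% to 2.28% passed under these alternatives between aged and young animals, and 0.302% to 1.43% in the F test. The share was 0.00336% to 0.272% between middle-aged and young animals and 0% to 0.094% between aged and middle-aged animals. Where next to no probe passed, 0 of 80 says nothing about the members. Deviations of same-numbered animals correlated at −0.41 to 0.38, positive for all 3 middle-aged and aged pairs (0.05 to 0.38) and negative for all 3 young and middle-aged pairs, so the numbers were not taken to pair the animals. The lowest adjusted p of any member between aged and young was 0.0742, for Cox6a2 with slide as a block. Medians moved by more than the spread between animals in the following cases. For complex II, aged minus young was 0.119 with slides blocked. Middle-aged minus young in complex II was 0.0476 with slides blocked, 0.0738 on slide 3 only and 0.0135 with the low Sdhc spot set missing, an alternative chosen after seeing the data. Aged minus middle-aged in complex II was 0.00226 on slide 3 only and 0.0162 without that spot. Aged minus middle-aged was 0.0529 for complex III with normexp and 0.0800 for complex V with the series matrix values. Leaving out 1 animal at a time gave −0.252 to −0.0283 for middle-aged minus young and 0.0370 to 0.260 for aged minus middle-aged in complex II, and −0.0771 to 0.0417 for middle-aged minus young in complex III. Over 41 named genes, 2706 values under alternatives gave 0 calls, to be read beside the shares of all probes above, and 227 changed sign, all uncalled. Slide 3 alone holds 1 animal per age and gives no test.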
